A study of Mus musculus with 10 samples.

Results

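The Hox cluster genes encode homeodomain transcription factors that set the identity of each level along the head-to-tail axis of the embryo. They were chosen by symbol, as Hox followed by a, b, c or d and a number, and 39 of the 24386 genes in the deposited tables met this rule. The Hoxa cluster held 11 of them on chromosome 6, Hoxb 10 on chromosome 11, Hoxc 9 on chromosome 15 and Hoxd 9 on chromosome 2. Within a cluster the genes lie in the order of their paralog numbers. Low numbers act in the hindbrain and neck and high numbers in the trunk, limbs and tail. In embryonic stem cells (ESCs) the clusters are a textbook target of Polycomb proteins, which hold developmental genes at low expression, and they are switched on in order when cells leave the pluripotent state.

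The assay was transient transcriptome sequencing (TT-seq), in which cells take up 4-thiouridine (4sU) for a few minutes and only the labelled RNA is sequenced. The cells were TX1072, a female mouse ESC line from a cross of Mus musculus castaneus (Cast) and C57BL/6 (B6), labelled WT in all 10 samples, in which doxycycline (DOX) drives the endogenous Xist gene of the B6 X chromosome. The 5 groups had received DOX at 1 µg/ml for 0, 4, 8, 12 or 24 h, with 2 replicates each, and 4sU at 0.5 mM for 5 min. All were grown on gelatin in serum with LIF and 2i, the medium that holds ESCs in the naive state, and the culture of each sample spanned a pair of flasks. TX1072 is a single cell line, and no DOX-treated sample without Xist induction was analysed here, so that Xist, DOX and added time in culture cannot be told apart. The labels do not say what the replicate number marks, and p-values measure the spread between these samples, part of which may be technical. With 2 samples against 2, an exact permutation test of a single gene could not go below p = 0.33, so the tests below pool the spread over all genes.

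Total counts ran from 18809046 to 22274929 read pairs per sample, and 14525 genes had enough counts to be tested. The ESC markers were high. Pou5f1 (24.1 RPKM), Nanog (42.1) and Esrrb (6.4) were read in every sample, where RPKM is the level in counts per 1000000 (CPM) divided by the gene span in kilobases. Sox2 was at 0, but its whole span lies within Sox2ot on the same strand, a position at which every gene of the table was at 0. Markers of other cell types were read at lower levels. Against 2820 to 3120 CPM for 9 ESC markers, the summed level was 10.0 to 17.1 CPM for 7 mesoderm and posterior markers, 9.92 to 15.5 CPM for 6 neural markers, 3.15 to 6.38 CPM for 7 fibroblast markers and 2.34 to 3.78 CPM for 6 endoderm markers. Per length, the neural genes Olig2 (1.46 RPKM) and Nes (0.777) and the mesoderm gene T (0.816) exceeded every Hox gene but Hoxc12, and Cdx2 stood at 0.487 RPKM and Col1a2 at 0.0594. Foxa2, Mesp1, Neurog2, Prrx1 and Col3a1 averaged under 1 count per sample and Postn had none.

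Promoter sequences are shown for 3 Hoxa genes, because Hoxa9 and Hoxa10 moved together between replicates and Hoxa13 was nearly unread. Each window holds 250 bases before and 50 after a RefSeq transcript start on the minus strand of GRCm38.p6, with CG in capitals, the CpG dinucleotide at which DNA is methylated. Hoxa9 is at chr6:52227321-52227620, Hoxa10 at chr6:52240805-52241104 and Hoxa13 at chr6:52260831-52261130.
Hoxa9: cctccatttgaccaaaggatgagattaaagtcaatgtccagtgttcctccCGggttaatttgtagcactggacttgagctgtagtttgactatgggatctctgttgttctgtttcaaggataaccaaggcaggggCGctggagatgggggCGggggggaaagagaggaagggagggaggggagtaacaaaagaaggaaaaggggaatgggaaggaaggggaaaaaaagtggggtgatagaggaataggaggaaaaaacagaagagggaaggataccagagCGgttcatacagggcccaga
Hoxa10: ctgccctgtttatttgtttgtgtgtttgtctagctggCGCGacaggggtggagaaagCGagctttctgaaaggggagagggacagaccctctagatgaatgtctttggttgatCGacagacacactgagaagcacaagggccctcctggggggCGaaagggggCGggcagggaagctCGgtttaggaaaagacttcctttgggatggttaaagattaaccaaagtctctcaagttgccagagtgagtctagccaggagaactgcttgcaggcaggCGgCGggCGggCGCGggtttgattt
Hoxa13: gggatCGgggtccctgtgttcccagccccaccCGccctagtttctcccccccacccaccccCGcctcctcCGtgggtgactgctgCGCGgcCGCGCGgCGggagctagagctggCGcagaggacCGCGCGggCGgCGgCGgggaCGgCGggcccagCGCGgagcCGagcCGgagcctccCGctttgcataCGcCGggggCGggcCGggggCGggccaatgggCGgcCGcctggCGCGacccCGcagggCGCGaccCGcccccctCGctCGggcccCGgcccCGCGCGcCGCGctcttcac
CG was found 4 times in the Hoxa9 window, 12 times in this Hoxa10 window and 45 times in the Hoxa13 window. Among the 24 windows available for 22 members the median was 14.5 CG, with a range of 4 to 45, against 7 over 32851 promoter windows of the same length. In all, 20 of the 24 Hox windows were above that median, 94.6% of all promoters held CG at least once, and CG reads the same on both strands. Of the 3 genes, Hoxa9 had the fewest CG and the highest level per length, and Hoxa13 the most CG and the lowest level. A relation of CG to level was not tested over the members. Hoxa10 has a second window, with 21 CG, and Hoxa2, with 9 CG, was below Hoxa13 in level (0.02 and 0.0242 RPKM). Hoxd11, which drew 7 counts in all, also had a window with 4 CG and another with 25.

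MicroRNAs of the miR-196 family lie within the clusters and are known to act on Hox messages such as that of Hoxb8. Their mature forms are shown with the seed, bases 2 to 8, in capitals, since the sequences of the family members share it.
mmu-miR-196a-5p: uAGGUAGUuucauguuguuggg
mmu-miR-196b-5p: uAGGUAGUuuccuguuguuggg
The Mir196a-1 precursor gene in the Hoxb cluster was read in all 10 samples, with 15 to 34 counts, whereas Mir196a-2 in Hoxc averaged 0.3 and Mir196b in Hoxa 0.2 counts per sample. A count over a precursor gene in newly made RNA measures transcription across it and not the mature microRNA.

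Transcription of the clusters was low and unequal. The 39 genes drew 4532 counts over the 10 samples, of which Hoxc held 2528 (55.8%), Hoxa 1587 (35.0%), Hoxb 241 (5.3%) and Hoxd 176 (3.9%). As a yardstick of silent genes, 1449 olfactory and vomeronasal receptor genes were used, whose 95th percentile was 0.0106 RPKM and whose 99th was 0.0834 RPKM. By the lower bound 23 of 39 Hox genes were above the yardstick, against 63.7% of all genes, and by the upper bound 13 were, against 51.1%. All 9 Hoxc genes exceeded the lower bound, as did 8 of 11 Hoxa, 3 of 10 Hoxb and 3 of 9 Hoxd genes. The upper bound was passed by 8 Hoxc, 4 Hoxa, 1 Hoxb and 0 Hoxd genes. In bulk samples, fewer cells that transcribe a gene and less new RNA per cell cannot be told apart.

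**Figure D1:**
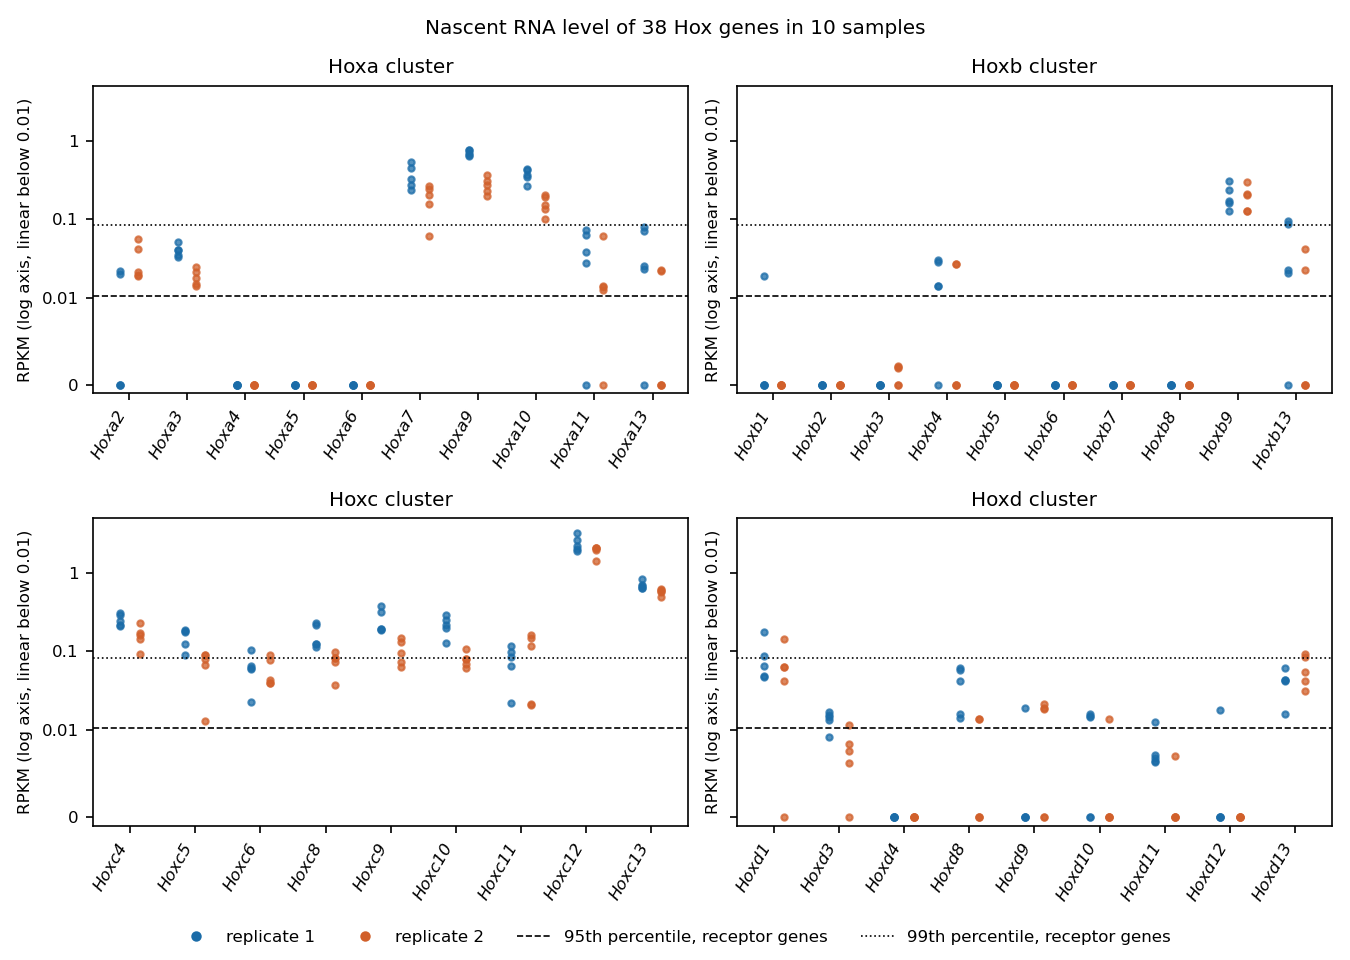
Level of 38 Hox genes in RPKM (log axis, linear below 0.01), in paralog order, with a point for each of the 10 samples coloured by replicate, and dashed and dotted lines at the 95th and 99th percentile of the receptor genes. Hoxc12 stands highest at a mean of 2.17 RPKM, most Hoxb and Hoxd genes lie at or near 0, and the replicate 1 points of Hoxa9, Hoxa10, Hoxc9 and Hoxc10 lie above those of replicate 2.

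Of the 39 genes, 16 were read in every sample and 9 in none. Hoxb2, Hoxb5, Hoxb6, Hoxb7 and Hoxb8, which pattern the hindbrain and the upper trunk, had 0 counts among 206523234, a result that allows up to 0.0145 CPM for each. Hoxa4, Hoxa5, Hoxa6 and Hoxd4 were also at 0, but their spans lie wholly within Hoxa3 or Hoxd3 on the same strand. All 1711 such genes of the table were at 0, compared with 13.5% of the 22675 others, so the counting gives no reading of these 4 genes. The counts of Hoxa3 and Hoxd3 come from the rest of their spans, 44006 and 36279 bp long. Their RPKM over the full span was 0.0291 and 0.0103, and over the part that is theirs alone 0.0348 and 0.0128.

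By paralog number the counts pooled over the clusters were highest at the posterior end. Paralogs 9 to 13 took 76.9% of the Hox counts, paralogs 1 to 4 took 14.7% and paralogs 5 to 8 took 8.3%. Of the 3486 counts of paralogs 9 to 13, Hoxc13 gave 1017 and Hoxc12 gave 746. In Hoxd the order differed, with 77 counts for Hoxd3, 33 for Hoxd1 and 35 for Hoxd13. In RPKM, 12 of 16 genes of paralogs 9 to 13 exceeded the 95th percentile of the receptor genes, against 6 of 12 and 5 of 11 in the other classes, where the 4 uncountable genes lie. The median level of the countable genes was 0.0686, 0.0170 and 0.0219 RPKM for paralogs 9 to 13, 1 to 4 and 5 to 8.

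The most transcribed members stood at the 5′ end of Hoxc. Hoxc12 (chr15:102936853-102938517 in mm10, the build of all gene spans given here), of posterior paralog number, averaged 2.17 ± 0.486 RPKM (SD, n = 10). Its counts at 0, 4, 8, 12 and 24 h were 114, 82, 78, 70 and 62 in replicate 1 and 73, 46, 68, 76 and 77 in replicate 2. The adjoining Hoxc13 (chr15:102921131-102928814), a regulator of hair keratin genes, averaged 0.643 ± 0.0911 RPKM (SD, n = 10). Its counts were 105, 121, 107, 109 and 107 in replicate 1 and 101, 73, 95, 94 and 105 in replicate 2. Hoxc4, at the other end of the cluster, reached 0.208 RPKM, from 11, 10, 13, 15 and 15 counts in replicate 1 and 5, 11, 7, 9 and 9 in replicate 2. The lowest Hoxc member by count was Hoxc6, with 1 to 5 counts in every sample and a mean of 0.0604 RPKM, still above the lower receptor bound.

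In Hoxa the leading members were Hoxa9 at 0.488 RPKM and Hoxa7 at 0.275. Hoxa9 (chr6:52223097-52227370), known for its part in blood stem cells, had 59, 61, 70, 57 and 58 counts in replicate 1 and 34, 19, 26, 18 and 26 in replicate 2. The replicate ranges of Hoxa9 do not overlap. Hoxa2, Hoxa11 and Hoxa13 had 1 to 2.3 counts per sample on average and exceeded the lower bound alone.

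Transcription of Hoxb was nearly all at Hoxb9. Hoxb9 (chr11:96271330-96276593), a gene of the thoracic level, took 214 of the 241 counts of the cluster and averaged 0.196 RPKM. Hoxb13 followed with 13 counts in all, 4, 4, 1, 0 and 1 in replicate 1 and 0, 0, 1, 2 and 0 in replicate 2. Hoxb4 had 10 counts, 2, 0, 1, 1 and 2 in replicate 1 and 2, 0, 0, 0 and 2 in replicate 2. At these counts neither gene gives an order of the samples. Hoxb1 and Hoxb3 had 1 and 3 counts in all and lay below the receptor bound. Upstream of Hoxb9 on the same strand, the noncoding gene Gm53 averaged 963.7 counts and 3.64 RPKM and ended 6845 bp before it.

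Hoxd drew the fewest counts, with 3 members above the lower bound and none above the upper. Its best-read member, Hoxd3, held 77 of the 176 counts and lay below that bound over its full span, at 0.0103 RPKM. Over the countable part of each span Hoxd3 was above, at 0.0128 RPKM against a 95th percentile of 0.0111. Hoxd1 averaged 0.0738 RPKM, with 8, 2, 4, 3 and 2 counts in replicate 1 and 3, 6, 0, 3 and 2 in replicate 2. Hoxd13, which shapes digits and the genital region, averaged 0.0513 RPKM, with 3, 1, 3, 3 and 4 counts in replicate 1 and 3, 2, 6, 6 and 4 in replicate 2. Hoxd8 averaged 0.0219 RPKM, with 4, 1, 3, 1 and 4 counts in replicate 1 and 1, 0, 0, 1 and 0 in replicate 2. At a few counts per sample no change over time was detectable for these genes. Hoxd9, Hoxd10, Hoxd11 and Hoxd12 had 4, 4, 7 and 1 counts in all.

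Whether the Hox genes moved with DOX was asked for the 14 members that passed the count filter, among them Hoxa3, Hoxa7, Hoxa9, Hoxa10, Hoxb9, Hoxc4, Hoxc5, Hoxc8, Hoxc9, Hoxc10, Hoxc12, Hoxc13 and Hoxd3. Of these, Hoxc5, Hoxc8 and Hoxd3 reached 10 counts in replicate 1 samples alone. Hoxc4 and Hoxc10 reached 10 counts in 6 samples each, 5 of them in replicate 1. Of the 25 that did not pass, 16 had reads, at most 8 in a sample. By edgeR's quasi-likelihood test with Benjamini-Hochberg adjustment over all tested genes, 0 of 14 changed at 4, 8, 12 or 24 h. This fit held time and no replicate term. Of all tested genes, the share called after 4 h was 0.0138%, after 8 h 0.193%, after 12 h 0.95% and after 24 h 1.85%. A linear trend over hours was called for 0 of 14 members and for 3.15% of genes. These comparisons share the 0 h samples. DESeq2 without its own filter and limma also called 0 members in each. With that filter on DESeq2 called 0 too, but the filter withholds an adjusted p from genes of low count. An unadjusted p under 0.05 was reached by Hoxb9 alone at 4, 8 and 24 h, by 0 members at 12 h and by Hoxb9 and Hoxc5 in the trend, against 2.09%, 4.06%, 10.3%, 11.5% and 13.2% of genes in that order. The median log2 fold change of the 14 at 24 h was -0.38, beside 0.01 for all tested genes, with 10 of the 14 estimates negative. With the replicate number added to the fit as a block, Hoxb9 was called at 24 h and Hoxc9 in the trend, as given below. In the blocked fit 5 of the 14 had an unadjusted p under 0.05 at 24 h, against 16.1% of genes, and 4 in the trend, against 16.6%. The block narrowed the estimates of members that differed between replicates, with an SE at 24 h of 0.24 for Hoxa10 against 0.55 without it.

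The member with the lowest p over time was Hoxb9. It had 34, 16, 19, 26 and 13 counts in replicate 1 and 34, 21, 13, 23 and 15 in replicate 2. All later samples thus lay below the 0 h samples, and the level was 1.59 ± 0.0549 CPM at 0 h and 0.667 ± 0.00855 CPM at 24 h (SD, n = 2). The log2 fold change at 24 h was -1.23 with an SE of 0.31 (95% interval -1.90 to -0.56), at an adjusted p of 0.0652 from edgeR's quasi-likelihood test. With the replicate number as a block it fell, at an adjusted p of 0.0187, where 3.46% of genes were called lower, and without the count filter the adjusted p was 0.0451. Leaving out a sample gave adjusted p of 0.0759 to 0.319. Its neighbour Gm53 differed by 0.03 on the log2 scale at 24 h (95% interval -0.25 to 0.31) and Mir196a-1 by 0.19 (-0.47 to 0.85). Neither of these intervals overlaps that of Hoxb9, and the difference itself was not tested.

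Hoxc9, another gene of the thoracic level, had 50, 53, 31, 29 and 28 counts in replicate 1 and 24, 19, 14, 10 and 12 in replicate 2. Within each replicate the counts at 8, 12 and 24 h were below those at 0 and 4 h. Its trend was -1.04 on the log2 scale per 24 h, at an adjusted p of 0.389, and with the replicate block -1.03 at an adjusted p of 0.0442, where 3.64% of genes were called lower. With a sample left out and no block the trend ran from -1.87 (without the 24 h replicate 1 sample) to -0.70 (without the 24 h replicate 2 sample). Such a fit leaves 1 replicate number at that time, so its value also holds the gap between the replicates and does not measure the stability of the trend. Hoxc5 had 13, 12, 13, 9 and 6 counts in replicate 1 and 6, 6, 6, 5 and 1 in replicate 2, with a trend of -1.34 (adjusted p = 0.340) that was not called and was -0.65 without the 24 h replicate 2 sample. Hoxa7 had 33, 15, 15, 28 and 19 counts in replicate 1 and 17, 14, 9, 13 and 4 in replicate 2, and its log2 fold change at 24 h was -1.06 (adjusted p = 0.571). It was -2.65 without the 24 h replicate 1 sample, -0.28 without the 24 h replicate 2 sample and -0.49 without the 0 h replicate 1 sample. As for Hoxc9 and Hoxc5, these values also hold the gap between the replicates. With the replicate block and all samples the Hoxa7 value was -1.06 with an SE of 0.40, against an SE of 0.56 without the block. The 95% intervals at 24 h were narrowest for the best-read members, -0.94 to 0.16 for Hoxc12 and -0.37 to 0.54 for Hoxc13, and both include 0. Changes of a size within these intervals remain possible. With the replicate block the intervals were -0.79 to 0.05 for Hoxc12 and -0.26 to 0.44 for Hoxc13.

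**Figure D2:**
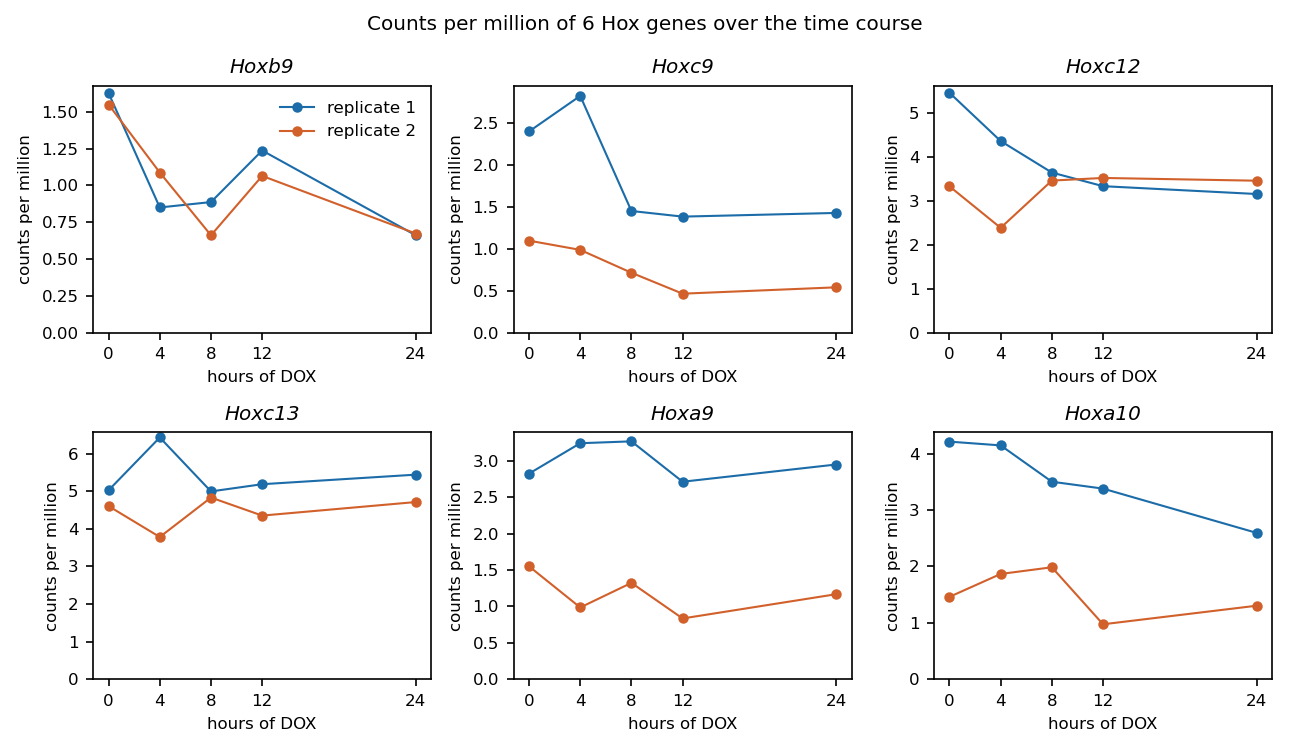
Level in CPM of 6 Hox genes against hours of DOX, with a line for each replicate. Hoxb9 lies highest at 0 h in both replicates, at 1.59 CPM on average, Hoxc9, Hoxa9 and Hoxa10 run at separate levels in replicate 1 and replicate 2, and Hoxc13 averages 4.94 CPM.

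The summed levels of the clusters were lower at 24 h than at 0 h on average and were not tested. Hoxa summed to 8.74 ± 4.50 CPM at 0 h and 7.15 ± 3.63 CPM at 24 h, and Hoxc to 13.5 ± 4.26 and 11.3 ± 1.81 CPM (SD, n = 2). These SDs hold the gap between the replicate numbers. Within replicate 1 Hoxa went from 11.9 to 9.72 CPM and Hoxc from 16.5 to 12.6 CPM, and within replicate 2 from 5.56 to 4.58 and from 10.5 to 10.1 CPM. Hoxb went from 1.78 ± 0.194 to 0.789 ± 0.0359 CPM, most of which is the change of Hoxb9 described above, and Hoxd from 1.01 ± 0.53 to 0.88 ± 0.482 CPM.

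The larger contrast in these genes was between the replicate numbers. It was examined after the values had been seen, as the replicate term of a model that also holds time. In Hoxa the summed level was 9.72 to 11.9 CPM in the 5 replicate 1 samples and 3.66 to 5.86 CPM in the 5 replicate 2 samples, and in Hoxc 12.6 to 17.4 and 9.12 to 10.8 CPM. The ranges do not overlap in either cluster. Those of Hoxb (0.814 to 1.92 and 0.763 to 1.64 CPM) and Hoxd (0.744 to 1.39 and 0.518 to 0.926 CPM) do. In the edgeR fit, 8 of the 14 tested members were lower in replicate 2, where 6.38% of genes were called lower: Hoxa3, Hoxa7, Hoxa9, Hoxa10, Hoxc5, Hoxc8, Hoxc9 and Hoxc10. All 14 estimates were negative, with a median of -1.03 beside 0.00 for all genes. Since Hoxc5, Hoxc8 and Hoxd3 owed their place among the 14 to replicate 1, they had to lie lower in replicate 2. For Hoxc4 and Hoxc10, 5 of the 6 samples with 10 counts or more were in replicate 1, so their place leaned on it too. The sign count and the median of the 14 are thus partly set by the filter. Without the filter 30 members were fitted, of which 7 were called, and 25 estimates were negative and 5 positive. The 25 members that did not pass the filter drew 131 counts in replicate 1 and 105 in replicate 2. Of the 8 calls, 5 (Hoxa3, Hoxa9, Hoxa10, Hoxc9 and Hoxc10) held in DESeq2 without its own filter and without any single 0 h or 24 h sample, and Hoxa7, Hoxc5 and Hoxc8 did not. Hoxc5 was lost with any sample left out, at adjusted p of 0.0505 to 0.096.

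Hoxa10, the patterning gene of the uterus, had 88, 78, 75, 71 and 51 counts in replicate 1 and 32, 36, 39, 21 and 29 in replicate 2. Every replicate 1 sample exceeded every replicate 2 sample, and its log2 fold change was -1.22 with an SE of 0.15 (adjusted p = 5.32e-07). Hoxa9, given above, differed by -1.33 with an SE of 0.17 (adjusted p = 5.03e-07), a level in replicate 2 of 0.398 times that in replicate 1. Hoxa3, a gene of the neck and its glands, had 47, 33, 31, 32 and 35 counts in replicate 1 and 17, 21, 12, 14 and 21 in replicate 2 and differed by -1.09 (adjusted p = 0.000214). Hoxc10, a gene of the lumbar level, had 27, 28, 22, 23 and 13 counts in replicate 1 and 9, 6, 7, 12 and 9 in replicate 2 and differed by -1.40 (adjusted p = 0.000283). Hoxc9 differed by -1.29 (adjusted p = 1.47e-05) and Hoxa7 by -0.97 (adjusted p = 0.0107). Hoxc8, which patterns the lower cervical and thoracic level, had 17, 16, 10, 9 and 9 counts in replicate 1 and 3, 6, 6, 8 and 6 in replicate 2 and differed by -1.07 (adjusted p = 0.0297). Hoxc5 differed by -1.13 (adjusted p = 0.0261). These adjusted p-values are from edgeR's quasi-likelihood test.

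In 7 members, Hoxa3, Hoxa9, Hoxa10, Hoxc8, Hoxc9, Hoxc10 and Hoxc13, the CPM of the replicate 1 samples all lay above those of replicate 2, as in 3.47% of tested genes. Hoxc8 is one of those that passed the filter through replicate 1 alone, and Hoxc10 leaned on replicate 1 to pass it. Other members were not called. Hoxd3, which also passed through replicate 1 alone, differed by -0.99 (95% interval -1.76 to -0.22, adjusted p = 0.0842) and was called by limma, and Hoxc4 differed by -0.67 (-1.26 to -0.07, adjusted p = 0.141). Hoxb9 differed by -0.05 (95% interval -0.48 to 0.38), Hoxc12 by -0.27 (-0.55 to -0.003) and Hoxc13 by -0.26 (-0.48 to -0.03). Among the called members, the intervals of Hoxa7 (-1.489 to -0.445), Hoxc5 (-1.823 to -0.432) and Hoxc8 (-1.747 to -0.397) overlap that of Hoxb9. The differences between genes were not tested.

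**Figure D3:**
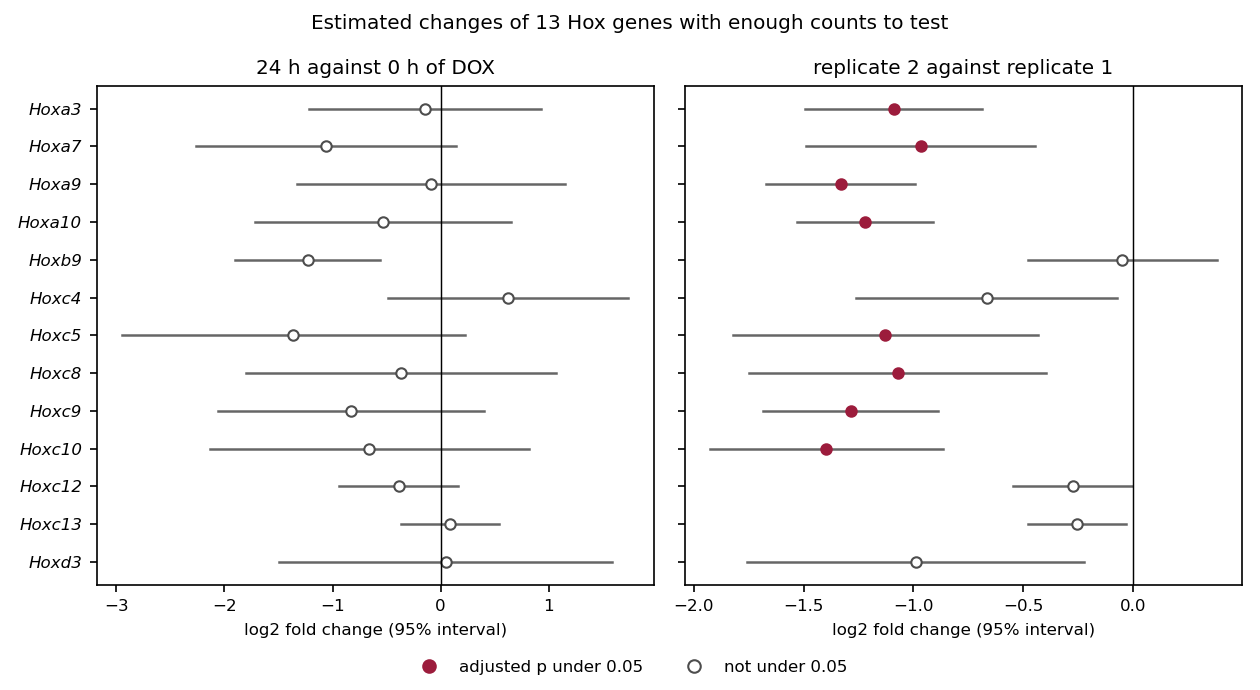
Log2 fold change with its 95% interval for 13 of the 14 tested Hox genes, at 24 h against 0 h (left) and in replicate 2 against replicate 1 (right), with filled points for adjusted p under 0.05. No point is filled on the left, where Hoxb9 at -1.23 has the interval farthest from 0, and 8 are filled on the right, all below 0.

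Other measures were set against the replicate number beside these genes, and their part in the difference was not tested. The summed level of 6 neural markers was 11.8 to 15.5 CPM in replicate 1 and 9.92 to 11.7 CPM in replicate 2. Nes and Olig2, the 2 tested, were called lower, while Pax6 averaged 0.186 and 0.357 CPM. The summed level of 7 fibroblast markers was 3.9 to 6.38 and 3.15 to 4.08 CPM, ranges that overlap. Of the 3 tested, Col1a2 was called lower, and Col1a1 (log2 -0.60) and Thy1 (0.10) were not called. The ranges of the ESC markers (2870 to 3120 and 2820 to 3080 CPM), the endoderm markers (2.75 to 3.78 and 2.34 to 3.41 CPM) and the mesoderm and posterior markers (10.0 to 17.1 and 10.8 to 13 CPM) overlapped too, although Pou5f1 and Cdx2 were called lower. Of all tested genes 11.7% were called in either direction between the replicate numbers.

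TALE homeodomain proteins bind DNA together with Hox proteins, and most of their genes were transcribed. All 9 genes of the list exceeded the lower receptor bound, led by Pknox1 (1.30 RPKM), Pbx3 (1.26) and Meis2 (0.656). Of the 8 tested, 0 were called at any time, also in the trend, although with the replicate block Pknox2 was called at 12 h, at a log2 fold change of 0.27 without the block and an adjusted p of 0.398 without and 0.0114 with it. Between replicates Meis2 was lower in replicate 2, at 164 ± 0.987 CPM in replicate 1 and 107 ± 7.96 CPM in replicate 2 (SD, n = 5), as was Pknox2, at 162 ± 14.2 and 136 ± 9.17 CPM. These were 2 of the 8 tested, where 6.38% of genes were called lower. The levels of Pbx3 were 261 ± 16.1 and 245 ± 21.8 CPM and were not called.

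Regulators upstream of the clusters include the Cdx factors, the retinoic acid receptors and the Trithorax-type enzyme Kmt2a. The list was led by Kat6a (4.28 RPKM), Kmt2a (2.25) and Cdx1 (1.52). In the trend over hours, 1 of the 10 tested rose and 1 fell, where 3.15% of genes were called. Rarg, a retinoic acid receptor, rose by 0.67 on the log2 scale per 24 h (adjusted p = 0.0307), and Aldh1a2, which makes retinoic acid, had a slope of -0.50 (adjusted p = 0.0338). Rarg was no longer called without the 0 h replicate 2, 4 h replicate 2 or 24 h replicate 1 sample, and Aldh1a2 without any single 4 h or 24 h sample. No member of the list was called at a single time in the same fit, whereas the replicate block called Cdx1 and Rarg at 12 h (adjusted p = 0.000801 and 0.00718) and Cdx2, Aldh1a2 and Rarg at 24 h (0.0456, 0.0327 and 0.00174). At 24 h with the block, 1 of the 10 tested was thus higher and 2 were lower, where 3.46% of genes were called lower. Between replicates Cdx1, Cdx2 and Rarg, 3 of the 10 tested, were lower in replicate 2, where 6.38% of genes were called lower. Cdx2 stood at 3.93 ± 1.19 and 2.25 ± 0.251 CPM (SD, n = 5).

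Among 22 other homeobox genes of the ANTP class, 7 were tested and 0 were called over time or between replicates. Gbx2, En2 and Evx1 led at 0.437, 0.193 and 0.178 RPKM. Noncoding genes within the clusters were led by Mir196a-1 (11 RPKM over its short span), Gm53 (3.64) and Hotairm1 (0.771), and 0 of 5 tested changed over time. Gm53 differed by -0.25 and Hotairm1, in Hoxa, by -0.43 between replicates, both called, where 6.38% of genes were called lower in replicate 2. Of the nearest genes outside the clusters, Halr1 beside Hoxa (1.76 RPKM) and Mtx2 beside Hoxd (2.16 RPKM) were transcribed, Halr1 lower and Mtx2 higher in replicate 2 (log2 -0.22 and 0.27). Ttll6 beside Hoxb had 0.203 RPKM. Hottip, Gm11529, Gm38436, D930007P13Rik and Evx2 averaged at most 4.1 counts.

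The hybrid line allowed the B6 and Cast copies to be read apart where reads covered a strain variant. The B6 share of allelic reads, which the study calls the d-score, had an autosomal median of 0.521 to 0.524 per sample over 11543 genes. All Hox clusters are autosomal. Hoxa was read more from Cast, with 180 B6 and 420 Cast read pairs, a B6 share of 0.3 (Wilson 95% interval 0.265 to 0.338) and a share below 0.5 in 10 of 10 samples. Hoxc as a whole stood at 0.5 (0.464 to 0.536). Hoxb stood at 0.694 (0.580 to 0.789) and Hoxd at 0.607 (0.500 to 0.705), each from under 100 read pairs. These intervals cover counting error only. Each of these 2 shares rests largely on 1 gene. Hoxb9 gave 45 of 50 B6 and 15 of 22 Cast pairs of Hoxb, and Hoxd3 gave 35 of 51 and 9 of 33 of Hoxd. Of the other Hoxd genes, Hoxd1 (9 B6 and 11 Cast), Hoxd8 (1 and 4) and Hoxd13 (2 and 8) had more Cast pairs. Hoxd9 (1 and 0), Hoxd10 (1 and 0) and Hoxd11 (2 and 1) had more B6 pairs.

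Within Hoxa the B6 share was 0.262 for Hoxa3, 0.3 for Hoxa7, 0.322 for Hoxa9 and 0.282 for Hoxa10. All 4 leaned to Cast, and the upper bound of each Wilson interval lies below 0.5. Hoxb9 leaned to B6 at 0.750 (0.628 to 0.842), with 45 B6 and 15 Cast read pairs, and so did Hoxd3 at 0.795 (0.655 to 0.888), with 35 and 9. Hoxc was mixed within, as was Hoxd. Hoxc13 leaned slightly to B6 at 0.567 (0.513 to 0.621), an interval that holds the autosomal median, Hoxc12 stood at 0.504 (0.442 to 0.566), and Hoxc9 and Hoxc10 were lower, at 0.370 (0.245 to 0.514) and 0.390 (0.288 to 0.501). Only 3 members had 10 allelic read pairs in every sample, and of these edgeR called Hoxa10 (log2 B6 over Cast of -1.44, SE 0.19, adjusted p = 1.23e-06), where 70.0% of genes were called. Hoxc12 (-0.10, adjusted p = 0.636) and Hoxc13 (0.27, adjusted p = 0.164) were not called, though Hoxc13 was without the 0 h replicate 1 sample, at 0.40 (adjusted p = 0.031). The share of members called was no larger than the background. The B6 share at 24 h against 0 h was changed for 0 of 3, with 2.65% of genes called and 0 of the 3 at an unadjusted p under 0.05. Outside the members, the share was 0.433 for Halr1, 0.414 for Hotairm1, 0.551 for Gm53 and 0.342 for Haglr, which lies in Hoxd on the strand opposite Hoxd3.

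**Figure D4:**
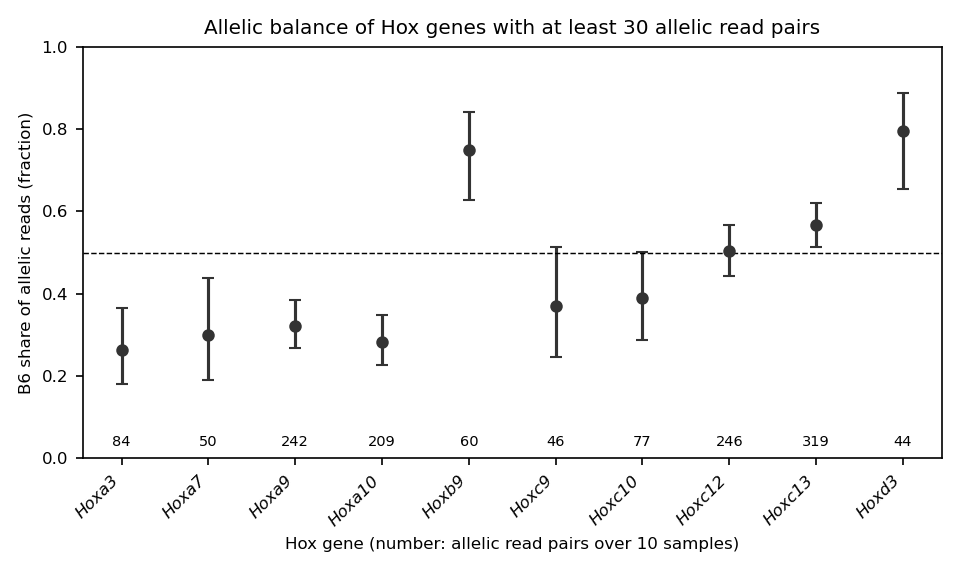
B6 share of allelic read pairs pooled over the 10 samples (vertical axis, fraction) for each Hox gene with at least 30 allelic read pairs, with Wilson 95% intervals, the number of read pairs at the foot and a dashed line at 0.5. The Hoxa genes lie between 0.262 and 0.322, Hoxc9 and Hoxc10 at 0.370 and 0.390, Hoxc12 and Hoxc13 at 0.504 and 0.567, and Hoxb9 and Hoxd3 at 0.750 and 0.795.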

How the data were processed

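Nascent RNA of 10 samples was analysed, grouped by hours of DOX and replicate number from the labels. The authors trimmed reads with Cutadapt, aligned them with STAR to mm10 with strain variants masked (the labels list TopHat2), split them by allele with SNPSplit and counted read pairs by strand over gene spans, introns included, with featureCounts 1.5.1. The deposited values are raw counts per gene of all, B6 and Cast read pairs; the deposited fraction, B6 over allelic counts, was not used and shares were computed from the counts. Spike-in RNA was added, but the sources give no scaling to it, so only relative levels are given. Sequences come from RefSeq tables.

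Genes were kept by edgeR's filterByExpr (14525 of 24386), scaled by TMM and tested with edgeR 4.0.16 quasi-likelihood fits (R 4.3.3) over all 10 samples, with Benjamini-Hochberg adjustment over all genes and a threshold of 0.05. Alternatives used DESeq2 1.42.0, limma 3.58.1, DESeq2 size factors, no filter, a replicate block and each sample left out. Scripts were tested on simulated data. Deviations of same-numbered replicates correlated at 0.142 to 0.281 over all 10 pairs of time points. A pairing by number thus rests on the data and not on the labels. The main fits over time did not use this pairing and held no replicate term. It entered in the replicate block, an alternative, and in the comparison between the replicate numbers. Members shown sample by sample were the 3 highest per length in each cluster, those called in any comparison, the 3 lowest p at 24 h and in the trend, and the lowest-count member of each cluster. Values of 1 member that this rule names are not reported here, although it stays in every count and sum. The members and gene lists were chosen with earlier results of these data known.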

Additional observations from a re-analysis of the deposited data

How the results depend on the processing

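The counts of Hox members called at 4, 8, 12 and 24 h and in the trend were 0 in every alternative except these. At 24 h 1 member, Hoxb9, was called without the count filter and 1, also Hoxb9, with the replicate block. In the trend 1 member, Hoxc9, was called with the replicate block. The block also raised the calls among cofactor and upstream genes from 0 to 3 at 12 h (Pknox2, Cdx1 and Rarg) and from 0 to 3 at 24 h (Cdx2, Aldh1a2 and Rarg), where no filter gave 1 (Cdx1) and 1 (Rarg), and in the trend the block called Halr1 (adjusted p = 0.0229). It changed no other call among the members and these genes, the B6 shares included, while over all genes it raised the calls at 24 h from 269 to 773 and in the trend from 458 to 824. The causes were not tested.

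Between replicate numbers, DESeq2 called 2 members (Hoxa9 and Hoxa10) of the 4 to which it gave an adjusted p, and 5 of 14 without its own filter, against 8 in edgeR. Without the count filter edgeR called 7 of 30 members, and Hoxc5 was not among them. With a sample left out the number called was 5 to 8 between replicates, 0 in the comparisons over time, 0 for the B6 share at 24 h, 1 to 2 for unequal alleles and 0 to 2 for the trend of cofactor and upstream genes. Directions reversed with a sample left out in 3 genes close to 0. Hoxc13 at 24 h ran from -0.015 to 0.176, Hoxb9 between replicates from -0.154 to 0.018 and Hoxc12 between alleles from -0.160 to 0.001. At the 99th percentile of the receptor genes 13 members lay above the yardstick. At the 95th percentile 24 did in the 0 h samples alone, and 24 over the countable part of each span, against 23 in the main setting. With 50 allelic read pairs required in every sample no member could be tested. Low counts kept 25 of 39 members out of the tests, among them the 4 that could not be counted because of overlapping spans.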
